A study of Mus musculus with 9 samples.

Results

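The genes described here are 37 genes of B cell development and B cell receptor signalling, chosen by symbol from textbook roles in the B lineage. Of these, 35 have a row among the 22942 rows of the RNA table, and Pou2f2 and Cd72 have none. The study compared 2 kinds of mouse bone marrow mononuclear cells of strain B6.SJL (CD45.1). Control cells had received the empty retroviruses MSCVneo and MSCVpuro. MLL-AF9 cells had received MSCVneo carrying MLL-AF9, a fusion protein found in human acute leukemia, together with MSCVpuro, so both groups carried both drug-resistance viruses. The fusion was delivered by a virus and not expressed from its own locus. The sources used here do not state age, the number of animals or whether the libraries came from separate animals. PolyA RNA came from 3 libraries per group, and the deposited table holds 1 pooled value per gene and group, in FPKM (fragments counted, divided by transcript length and library size). The spread between libraries and the depth are therefore unknown, and no value below has an error of its own.

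B cells form in the marrow from lymphoid progenitors. The transcription factors Ebf1 and Pax5 commit cells to the lineage, and the RAG recombinase then assembles the immunoglobulin heavy chain gene. The new heavy chain is tested on the surface with a surrogate light chain as the pre-B cell receptor, before a light chain replaces it. Both receptors signal through Cd79a and Cd79b, whose tails recruit Src-family kinases and Syk, and then Btk and the adaptor Blnk.

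In MLL-AF9 cells 19 of the B cell genes were called lower, among them Cd79a, Vpreb3, Pax5 and Ms4a1 at 0.626% to 2.52% of control. Lyn, Syk and Btk, signalling genes that myeloid cells also use, did not pass the test and stood at 76.0%, 71.0% and 109% of control. Genes between these were mixed. Vpreb1 and Bach2 did not pass, at 21.1% and 35.3% of control, and Cd22 and Bank1 were called lower, at 25.9% and 30.2%. Whether use by myeloid cells goes with the level kept was not tested. Rows were called when the authors' q-value was under 0.05 and the mean of both groups was at least 1 FPKM. Of the 35 genes, 33 reached that mean, and 13 of these did so through their control value alone, so that they had to differ. Among the 33, 19 were called lower and 0 higher, 13 of the 19 being such genes, compared with 5.21% called lower and 5.14% called higher of the 11521 rows tested. At an unadjusted p under 0.05 in the authors' deposited table, whose test is not named, 24 were lower and 1 was higher, beside 8.33% and 11.5% of all rows tested. Log2 changes were taken after adding 1 FPKM to each value, with positive values higher in MLL-AF9 cells. Their median was -1.99 for the 33 and 0.29 for all rows tested. The median of the 33 includes the 13 genes that had to differ, so it describes the 33 and is no test. In RNA of a mixed cell population, fewer cells of a type and less RNA per cell cannot be told apart.

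**Figure D1:**
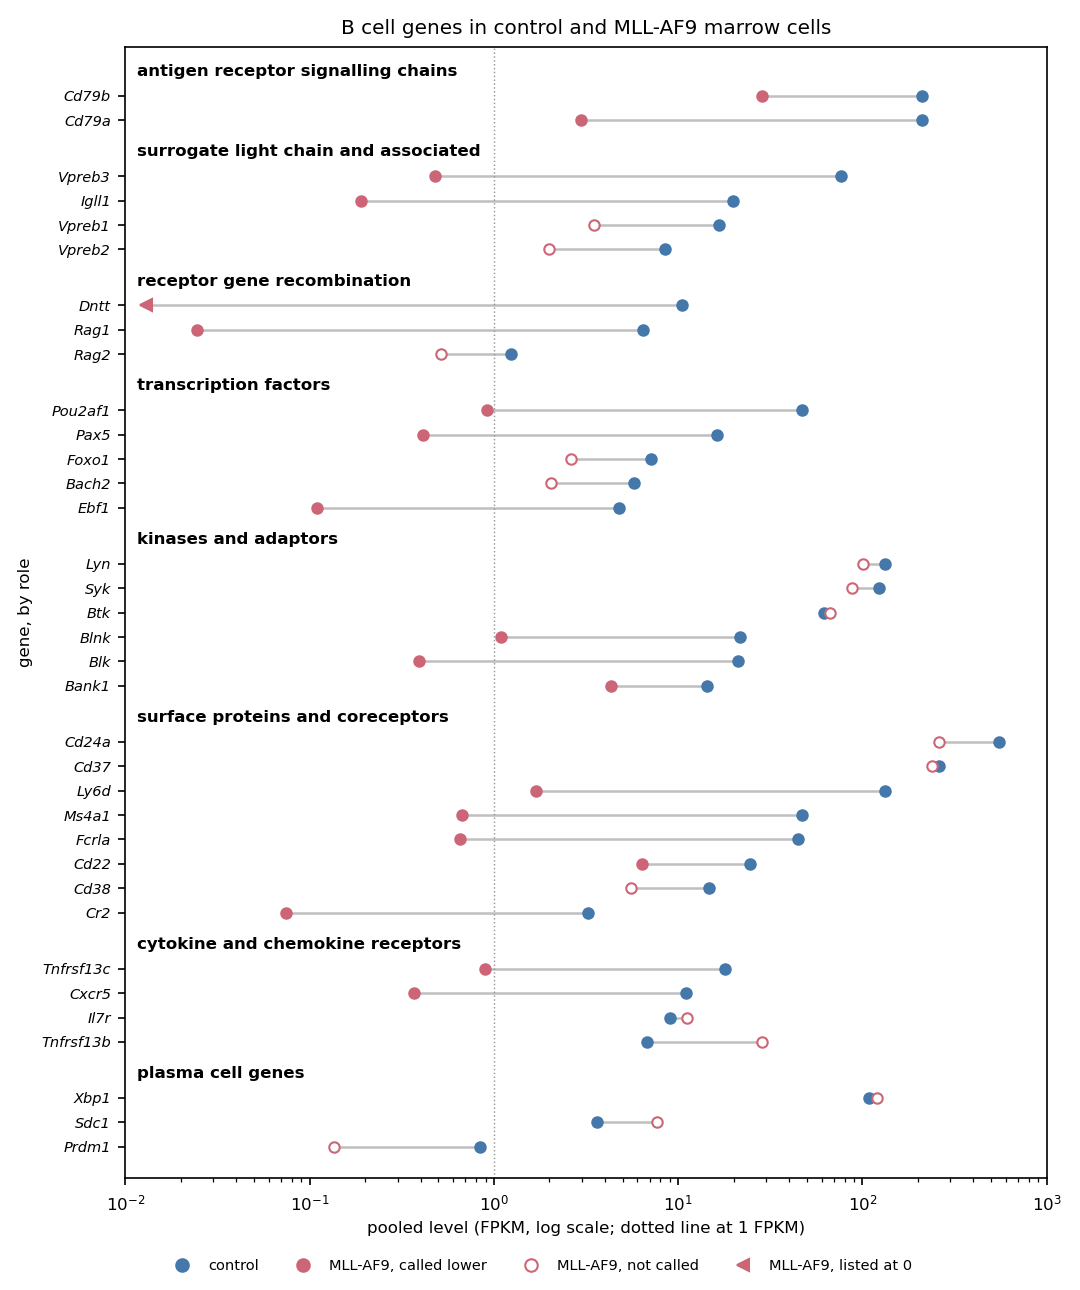
Pooled level of each of the 35 genes (rows, grouped by role) in FPKM on a log axis, for control (blue) and MLL-AF9 cells (red, filled where called lower, open where not called, triangle where listed at 0). The red points of Cd79a, Vpreb3 and Ly6d lie far left of their blue points, whereas those of Lyn, Syk, Btk and Cd37 lie close to them.

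The level left in MLL-AF9 cells differed widely between genes. In 16 of the 33 genes it was under 10% of control, between 0 and 5.01%, and all 16 were called lower. This limit was chosen after the values were seen, and 2.14% of all rows tested lay under it. Of the 16 genes, 13 reached the minimum mean through their control value alone, so the count describes them and is not set against that share. The other 3 were Cd79a, Ly6d and Blnk. The remaining called genes were Cd79b, Cd22 and Bank1, at 13.6%, 25.9% and 30.2% of control. The 14 genes not called ranged from 21.1% to 421% of control. Ranked by log2 change, 3 of the 20 lowest and 11 of the 100 lowest rows of the 11521 were among the B cell genes. They were led by Cd79a at rank 14, Vpreb3 at rank 15 and Ly6d at rank 16. Genes that reached the minimum mean through control alone, such as Vpreb3, are among them, so the ranks are a description too.

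**Figure D2:**
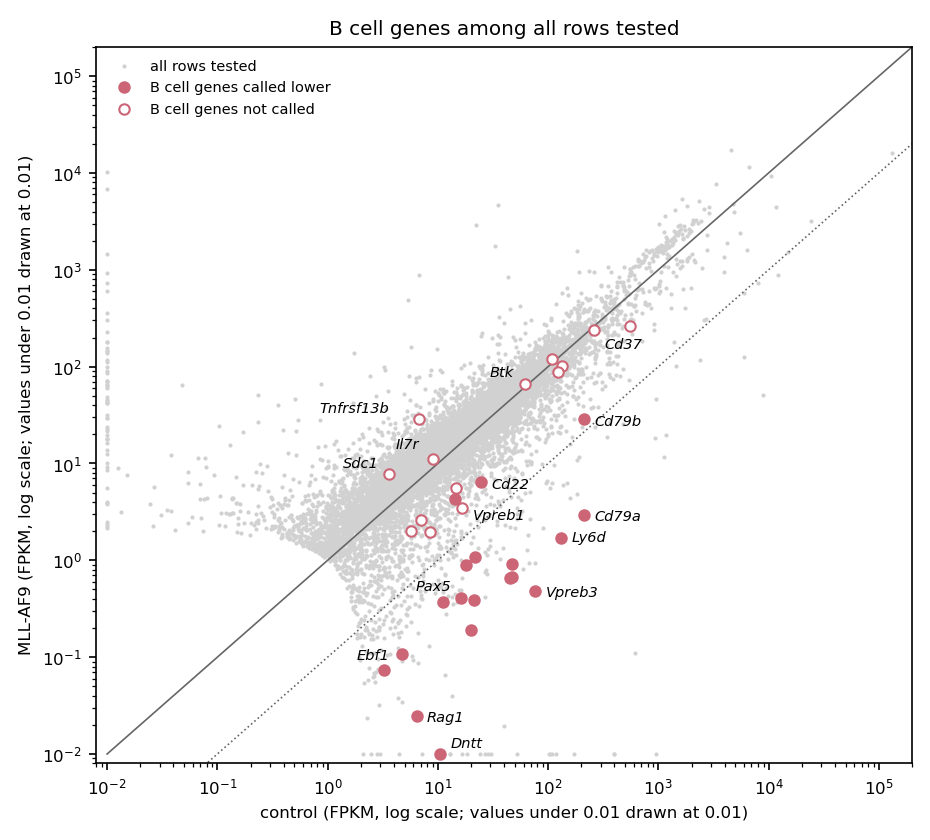
Control level against MLL-AF9 level in FPKM on log axes, for all 11521 rows tested (grey) and the B cell genes among them (red, filled where called lower, open where not called). The solid line marks equal levels and the dotted line 10% of control, under which 16 of the 33 genes lie.

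Both signalling chains of the receptor fell. Cd79a stood at 210 FPKM in control and 2.97 FPKM in MLL-AF9 cells, 70.6-fold lower at q = 8.18e-13 per the authors' deposited table. Cd79b also stood at 210 FPKM in control, but at 28.5 FPKM in MLL-AF9 cells, 7.36-fold lower at q = 1.11e-05 per the authors' deposited table. The proteins form a dimer, and their RNA was equal in control cells, whereas Cd79b was 9.60 times as high as Cd79a in MLL-AF9 cells. Whether the changes of the 2 genes differ could not be tested on pooled values.

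The pre-B cell receptor genes were all lower in value. Igll1, which encodes the lambda5 chain of the surrogate light chain, fell from 19.9 to 0.191 FPKM (the authors' deposited table gives q = 3.02e-08). Vpreb3, a related protein that binds immunoglobulin chains inside the cell, fell from 76.7 to 0.480 FPKM, a 160-fold difference at q = 2.07e-11 per the authors' deposited table. The partners of lambda5, Vpreb1 and Vpreb2, did not pass. Vpreb1 was listed at 16.6 FPKM in control and 3.50 in MLL-AF9 cells (the authors' deposited table gives q = 0.0808), and Vpreb2 at 8.52 and 1.98 FPKM (the authors' deposited table gives q = 0.227). Both kept a similar part of the control level, 21.1% and 23.3%, and their summed level was 4.58-fold lower.

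Vpreb1 and Vpreb2 are near copies, and how the authors' counting shared reads between them is not given, so their single values are uncertain. The copying is visible in the RefSeq promoter windows (build GRCm38.p6, 250 bases before to 50 after the annotated start), where 153 of 156 aligned bases are identical. The stretch of this block that lies before both starts is shown 5′ to 3′ on the gene's strand, with the bases that differ in capitals. It lies at chr16:16869256-16869361 on the minus strand for Vpreb1 and at chr16:17980315-17980420 on the plus strand for Vpreb2. The stretch begins 106 bases before the annotated start of Vpreb1 and 250 bases before that of Vpreb2, so its distance from the start differs. Counted from its first base, with the base of Vpreb1 first, the differences are G12T and C104T.
Vpreb1: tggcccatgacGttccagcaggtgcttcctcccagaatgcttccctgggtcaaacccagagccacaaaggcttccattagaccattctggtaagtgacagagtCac
Vpreb2: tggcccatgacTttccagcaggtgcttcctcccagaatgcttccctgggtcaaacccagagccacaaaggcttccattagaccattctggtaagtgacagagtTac

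The 3 genes that cut and join receptor gene segments were all under 1 FPKM in MLL-AF9 cells, as were 11539 of the 22942 rows of the table. Rag1, a subunit of the recombinase, fell from 6.41 to 0.0246 FPKM (the authors' deposited table gives q = 2.07e-13). Dntt, the terminal transferase that adds bases at the joins, was at 10.5 FPKM in control and listed at 0 in MLL-AF9 cells (the authors' deposited table gives q = 0.000153). Rag2, the other subunit, was under the minimum mean, at 1.24 FPKM in control and 0.518 FPKM in MLL-AF9 cells, at q = 0.496 per the authors' deposited table. Rag1 was thus 5.17 times as high as Rag2 in control cells, and Rag2 was the higher of the pair in MLL-AF9 cells, where both were under 1 FPKM.

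Of the 5 transcription factors with a row, 3 fell. Ebf1, which starts the B cell programme, fell from 4.76 to 0.109 FPKM, 43.7-fold lower at q = 4.01e-06 per the authors' deposited table. Pax5, which holds cells in the lineage, fell from 16.3 to 0.412 FPKM, 39.7-fold lower at q = 5.78e-07 per the authors' deposited table. Pou2af1, the coactivator that works with octamer-binding factors such as the product of Pou2f2, fell from 47.0 to 0.915 FPKM, 51.4-fold lower at q = 1.94e-10 per the authors' deposited table. These 3 factors kept between 1.95% and 2.52% of their control level. Foxo1, an activator of the Rag genes that many other cells also express, and Bach2, a repressor of plasma cell differentiation, did not pass. Foxo1 was at 7.09 FPKM in control and 2.63 in MLL-AF9 cells (the authors' deposited table gives q = 0.125). Bach2 was at 5.75 and 2.03 FPKM (the authors' deposited table gives q = 0.0839).

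Promoter windows were searched on both strands for the letters TCCCNNGGGA, a consensus of early B cell factor, and ATGCAAAT, the octamer, since Ebf1 and Pou2af1 fell. The octamer was added after the values were seen. RefSeq gave 32 windows for 30 of the 37 genes. The first motif was in 2 of the 32, those of Cd22 and Foxo1, compared with 0.904% of all 32851 windows. The octamer was in 2 of the 32, those of Vpreb3 and Blnk, compared with 1.74% of all windows. No window of the B cell genes held both motifs, and 1 of all windows did. A match is a description of letters only.

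The 4 windows with a match are shown from 250 bases before the annotated start up to it, on the gene's strand in GRCm38.p6, with the match in capitals. They lie at chr7:30879029-30879278 on the minus strand for Cd22, chr3:52268087-52268336 on the plus strand for Foxo1, chr10:75948050-75948299 on the plus strand for Vpreb3 and chr19:40994222-40994471 on the minus strand for Blnk. The octamers of Vpreb3 and Blnk read on the reverse strand and begin 45 and 130 bases before the start, and the matches of Cd22 and Foxo1 begin 49 and 92 bases before it.
Cd22: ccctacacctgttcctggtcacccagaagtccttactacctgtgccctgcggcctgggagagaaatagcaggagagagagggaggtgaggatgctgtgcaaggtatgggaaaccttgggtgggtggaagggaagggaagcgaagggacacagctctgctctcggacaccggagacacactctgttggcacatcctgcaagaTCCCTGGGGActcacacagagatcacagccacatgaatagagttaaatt
Foxo1: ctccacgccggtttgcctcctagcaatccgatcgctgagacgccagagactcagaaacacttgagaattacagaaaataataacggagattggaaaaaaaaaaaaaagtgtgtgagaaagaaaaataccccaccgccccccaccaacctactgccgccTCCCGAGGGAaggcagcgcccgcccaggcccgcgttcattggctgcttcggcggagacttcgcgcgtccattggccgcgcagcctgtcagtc
Vpreb3: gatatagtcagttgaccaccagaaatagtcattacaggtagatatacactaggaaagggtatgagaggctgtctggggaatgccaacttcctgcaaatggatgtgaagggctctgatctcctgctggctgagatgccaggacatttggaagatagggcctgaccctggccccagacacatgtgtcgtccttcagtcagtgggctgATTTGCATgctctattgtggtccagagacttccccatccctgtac
Blnk: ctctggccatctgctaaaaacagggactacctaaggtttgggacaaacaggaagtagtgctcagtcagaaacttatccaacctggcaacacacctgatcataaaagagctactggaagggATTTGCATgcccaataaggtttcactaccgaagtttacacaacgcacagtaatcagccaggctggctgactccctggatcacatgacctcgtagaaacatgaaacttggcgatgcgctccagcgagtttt

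Among the 2 genes with an octamer, Vpreb3 kept 0.626% and Blnk 5.01% of the control level. Of the 2 with the early B cell factor letters, Cd22 fell from 24.7 to 6.39 FPKM, 3.86-fold lower, and Foxo1 did not pass. Whether a match goes with the change of a gene was not tested.

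Of the 6 kinases and adaptors, 3 fell and 3 did not pass. Blk, a Src-family kinase found mainly in B cells, fell from 21.1 to 0.392 FPKM, 53.8-fold lower at q = 1.22e-09 per the authors' deposited table. Blnk, the adaptor that links Syk to Btk, fell from 21.8 to 1.09 FPKM, to 5.01% of control, at q = 4.94e-06 per the authors' deposited table. Bank1, a B cell scaffold protein, was the called gene nearest the threshold, at 14.3 FPKM in control and 4.33 in MLL-AF9 cells (the authors' deposited table gives q = 0.0478). The other 3 are kinases that myeloid cells also use. Lyn was at 133 FPKM in control and 101 FPKM in MLL-AF9 cells, and Syk at 124 and 87.8 FPKM. Btk was at 61.5 FPKM in control and 66.8 FPKM in MLL-AF9 cells, where it was 170 times as high as Blk.

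Of the 8 surface proteins with a row, 5 fell. Ly6d, an anchored protein that marks lymphoid progenitors turning to the B lineage, fell from 132 to 1.70 FPKM, 77.8-fold lower at q = 2.07e-11 per the authors' deposited table. Ms4a1, which encodes the B cell antigen CD20, fell from 47.3 to 0.669 FPKM, 70.6-fold lower at q = 2.04e-11 per the authors' deposited table. Fcrla, an Fc receptor-like protein of B cells, fell from 44.7 to 0.656 FPKM, with a q listed at 0 in the authors' deposited table. Cr2, the complement receptor of mature B cells, was low in control at 3.26 FPKM and at 0.0741 FPKM in MLL-AF9 cells (the authors' deposited table gives q = 1.71e-07). Cd22, an inhibitory coreceptor that binds sialic acid, completed the 5 that fell (the authors' deposited table gives q = 0.000826).

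The other 3 surface genes did not pass. Cd37, a tetraspanin of leukocytes, was at 261 FPKM in control and 239 in MLL-AF9 cells, a direction that changed sign when each column was rescaled to the same total. Cd24a, found on granulocytes and red cell precursors as well as B cells, was at 552 FPKM in control and 261 in MLL-AF9 cells (the authors' deposited table gives q = 0.328). Cd38, an NAD-consuming ectoenzyme, was at 14.7 and 5.53 FPKM (the authors' deposited table gives q = 0.123). Cd24a and Cd37 were the highest of all 35 genes in both groups.

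Receptors for survival and homing signals were divided. Tnfrsf13c, the receptor for the survival factor BAFF, fell from 18.0 to 0.897 FPKM, 20.1-fold lower at q = 9.13e-06 per the authors' deposited table. Cxcr5, which guides B cells into follicles, fell from 11.0 to 0.369 FPKM, 29.9-fold lower at q = 6.76e-07 per the authors' deposited table. Tnfrsf13b, the related receptor TACI, had the highest log2 change of the 33 genes, 1.93, at 6.78 FPKM in control and 28.5 in MLL-AF9 cells. It did not pass, with p = 0.00865 and q = 0.0712 in the authors' deposited table. Il7r, the interleukin 7 receptor chain of lymphoid progenitors and T cells, was at 9.05 FPKM in control and 11.1 in MLL-AF9 cells (the authors' deposited table gives q = 0.823), and its direction changed under 2 scalings.

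None of the 3 plasma cell genes passed. Xbp1, a factor of the secretory apparatus that many cells use, was at 108 FPKM in control and 121 in MLL-AF9 cells, a direction that turned when changes were centred on the median row. Sdc1, which encodes the plasma cell marker CD138, was at 3.60 and 7.72 FPKM (the authors' deposited table gives q = 0.340). Prdm1, the regulator of plasma cell differentiation, was under the minimum mean at 0.842 FPKM in control and 0.135 in MLL-AF9 cells (the authors' deposited table gives q = 0.0658). For comparison Igj, the joining chain of secreted antibodies and not among the 37, fell from 268 to 24.0 FPKM, 11.2-fold lower at q = 1.29e-07 per the authors' deposited table.

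A further 52 genes of the B lineage and its signalling were counted, of which 40 had a row and 38 reached the minimum mean. Of these 38, 6 did so through their control value alone and had to differ. Among the 38, 12 were called lower and 2 higher, beside 5.21% and 5.14% of all rows tested. The median log2 change of the 38 was -0.54. Of 8 surface genes 5 fell, among them Faim3, a receptor for IgM, from 59.2 to 0.815 FPKM, and Fcer2a, a low-affinity receptor for IgE, from 28.7 to 1.31 FPKM. Of 10 transcription factors 5 fell and 1 rose. Spib fell from 52.6 to 3.43 FPKM, Ikzf3 from 10.1 to 0.620 FPKM and Id3 from 11.1 to 0.467 FPKM, while Mef2c, a factor of myeloid and lymphoid progenitors, rose from 10.8 to 88.5 FPKM (the authors' deposited table gives q = 1.68e-12). Ikzf1, the Ikaros factor of all lymphoid cells, did not pass, at 91.6 FPKM in control and 117 in MLL-AF9 cells, and neither did Irf4, at 10.1 and 4.40 FPKM. Of 11 further signalling genes downstream of the receptor only Rasgrp3 was called, from 3.97 to 0.330 FPKM, and Plcg2, the phospholipase that Btk activates, was listed at 85.1 and 72.8 FPKM. Of 6 further receptors and their kinases only Gpr183, a chemoattractant receptor, was called, 3.12-fold higher from 6.39 FPKM in control (the authors' deposited table gives q = 0.0397). Tcf3 and Ighm had no row.

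Most T and NK cell, mature granulocyte and erythroid markers were lower in the same comparison, and the part of such cells in the B cell result was not tested. Of 17 T and NK cell markers reaching the minimum mean, 13 fell and 0 rose, beside 5.21% called lower of all rows tested. Many of these markers, such as Cd3d, Cd3e, Cd3g and Gzma, reached that mean through their control value alone, so that they had to differ. The count is therefore a description and is no test against that share. The summed level of the 20 listed was 160 FPKM in control and 28.5 FPKM in MLL-AF9 cells. Klrd1, which did not pass, made up 12.6 FPKM of the control sum and 12.2 FPKM of the MLL-AF9 sum. Of 9 mature granulocyte markers 8 fell and 0 rose, with sums of 57096 and 5255 FPKM. Retnlg, a secreted protein of neutrophils, stood at 8831 FPKM in control cells labelled mononuclear and at 51.3 FPKM in MLL-AF9 cells. Of 9 erythroid markers 6 fell and 0 rose, with sums of 259 and 68.1 FPKM for the 10 listed. Klf1 and Epor, which fell, reached the minimum mean through control alone, so this count is a description too. Tfrc did not pass and was higher in value, at 26.8 FPKM in control and 50.7 FPKM in MLL-AF9 cells. The median marker kept 9.88% of its control level among T and NK genes, 5.96% among granulocyte genes and 12.8% among erythroid genes. The median was 13.6% for the 33 B cell genes and 125% for all rows tested. The T and NK, erythroid and B cell medians include genes that reached the minimum mean through control alone, so they are descriptions only. In MLL-AF9 cells 13 of the 20 T and NK markers were under 1 FPKM, among them Cd3d, a T cell receptor chain, at 0.660 FPKM compared with 16.7 FPKM in control. No marker of the 3 lists with a row was at 0.

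**Figure D3:**
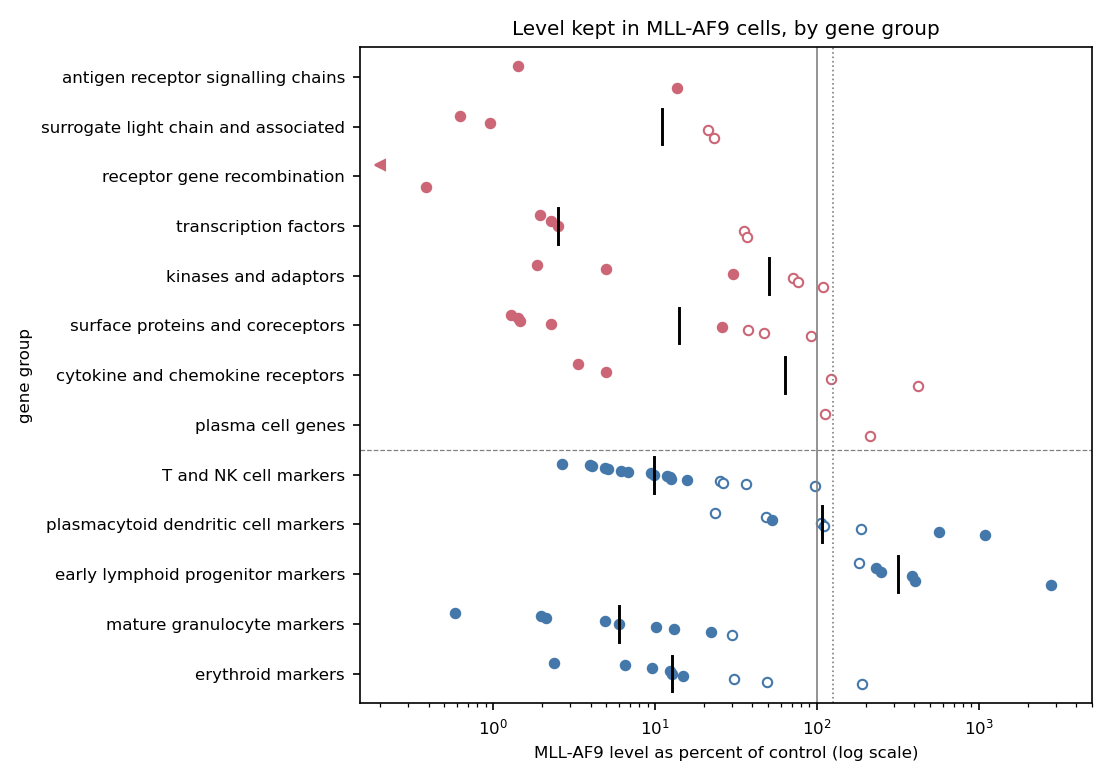
MLL-AF9 level as percent of the control level (log axis) for genes reaching the minimum mean, by role of the B cell genes (red) and by marker list of other cells (blue), with filled points called, open points not called, a triangle at the left edge for Dntt, listed at 0, and a black bar for the median of groups of 3 or more. The solid line is equal level and the dotted line the median of all rows tested, 125%. Transcription factors have a median of 2.52% and kinases and adaptors one of 50.6%.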

How the data were processed

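PolyA RNA of 3 control and 3 MLL-AF9 libraries was summarised by the authors in 1 table. Per the submitters' processing notes, TopHat 1.4.1 and Cufflinks 1.3.0 were among the tools used, with build mm9; the sources used here do not give their settings. The labels' protocols name a TruSeq RNA kit, which does not mark strand, and speak of duplicates per genotype, so which of the 3 libraries entered each value is not known. The header gives no unit, and the deposited values were taken as FPKM from the tools and the values. The p-value and q-value are the authors' own, deposited without the name of a test. The q-values equal a Benjamini-Hochberg adjustment of the p-values over the 13502 rows with q below 1, to within 2.13e-06. The other 9440 rows, 18 of them with a mean of at least 1 FPKM, were counted as not tested. They are not in the 11521 rows used here.

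No test was computed anew. Log2 changes used a pseudocount of 1 FPKM, which understates the change of low genes, and fold differences are ratios of FPKM. No fold is given against a value listed at 0. All members are named, and genes outside the members are those past the call rule with the largest changes in their list, up to 4, or defining genes; 1 gene that the rule names is not reported here. Plcg2, Notch1, Lmo2 and Siglech fall outside this rule and were named after their values were seen. The members and lists were chosen with earlier results of these data known. Of the other B lineage genes 2 were matched through a RefSeq synonym. The adjustment, log2 changes without a pseudocount and quantile normalization were checked on simulated data, but centring and rescaling to the same total were not. The 5hmC regions are in mm9, the promoter windows in GRCm38.p6, so regions were not assigned to genes. Protein sequences planned for 4 genes are not shown. Software was pandas 2.3.3 and numpy 2.4.6 in Python 3.11.15, with matplotlib 3.10.9 for plots.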

Additional observations from a re-analysis of the deposited data

How the results depend on the processing

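Counts of called members kept their side under each alternative run: 16 to 19 members were called lower and 0 higher without a minimum mean, with a minimum of 5 FPKM, with q under 0.01 and with the p-values adjusted over the tested rows alone. At q under 0.01 only 1 of the other B lineage genes was called higher. The median log2 change of the members was -1.18 with a pseudocount of 5 FPKM, and that of the other B lineage genes was -0.84 after centring on the median row. Scaling moved the median of all tested rows by -0.29 (centring), -0.21 (quantile normalization) or 0.15 (both columns rescaled to the same total, TPM). Of the 35 members, 31 kept their direction under all 5 pseudocounts and scalings, and the other 4 were not called. Centring gave log2 changes of -0.18 for Btk, -0.025 for Il7r and -0.14 for Xbp1. Quantile normalization gave -0.0073 for Btk and -0.019 for Il7r, and TPM gave 0.023 for Cd37. In the last 200 bases of the promoter window 0.572% of windows held the early B cell factor letters. No library could be left out of pooled values, so no result has a replicate check, and depth is unknown.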

Other observations

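Of 6 genes listed as early lymphoid progenitor markers, 5 rose and 0 fell, with q between 2.07e-13 and 0.0284 in the authors' deposited table. Of all rows tested, 5.14% were called higher and 5.21% lower. The list was chosen with earlier results of these data known, so the count describes these genes only. Flt3, a receptor kinase of progenitors, rose from 5.75 to 160 FPKM, and Cd34 from 19.3 to 78.2 FPKM. The transcription factor Sox4 rose from 3.28 to 12.6 FPKM, its fellow regulator Lmo2 from 100 to 232 FPKM and the chromatin organiser Satb1 from 18.1 to 44.7 FPKM. Notch1 did not pass, at 18.0 FPKM in control and 32.5 in MLL-AF9 cells. Several of these genes are also expressed by myeloid progenitors. Of the members found in lymphoid progenitors, Dntt, Rag1 and Ly6d fell. Il7r did not pass, at 9.05 FPKM in control and 11.1 in MLL-AF9 cells. Which cells held this RNA was not tested. Of 8 plasmacytoid dendritic cell markers reaching the minimum mean, 2 rose and 1 fell. Tcf4, the factor of that lineage, rose from 6.30 to 68.9 FPKM and Runx2 from 10.4 to 58.9 FPKM. Irf7 fell from 51.4 to 27.2 FPKM, and the surface marker Siglech was listed at 10.9 FPKM in control and 11.6 in MLL-AF9 cells.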
